A study of Rattus norvegicus with 8 samples.

Results

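The 9 transcripts described here encode plasma proteins that are made mainly by hepatocytes, and the mean LO signal in the spleen was above that of the control for 8 of them, while *Tf* was close to it. They were chosen by name, as genes of this kind, for spleen LO/control values, so those values are a description with no test. Their LO/control values in liver and small intestine are what the choice did not use. Their levels are not free of it, since a high level in liver goes with genes of this kind. The spleen levels also average control and LO samples. The genes are *Alb* (NM_134326, albumin, the main carrier and osmotic protein of plasma), *Ahsg* (NM_012898, fetuin-A, an inhibitor of calcification), *Fga* (NM_001008724, the alpha chain of fibrinogen), *Ttr* (NM_012681, transthyretin, a carrier of thyroid hormone), *Apoa1* (NM_012738) and *Apoa2* (NM_013112), apolipoproteins of high-density lipoprotein, *Apoc3* (NM_012501, an apolipoprotein that slows the clearance of triglyceride), *Tf* (NM_001013110, transferrin, the iron carrier) and *Serpina1* (NM_022519, alpha-1-antitrypsin, an inhibitor of neutrophil elastase). They are 9 of 36930 gene identifiers on the array and are measured by 13 of 40979 probes. All 9 were among the 27247 genes past the filter on dim signals, which they passed on the 4 liver arrays, where every reading was well above background.

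Male rats, 7 weeks old, received lavender oil (LO) at 5 mg/kg in 10% ethanol by stomach once a day for 13 days, and the control rats received 10% ethanol without LO. There were 12 rats, 6 per group, and the RNA of a group was pooled for each tissue. The growth protocol and the methods of the study name Fischer rats, and one label names Wistar. Control and LO pools were hybridized together on 8 arrays of 2 dyes, with LO in Cy5 on array 1 and in Cy3 on array 2 of each pair. Spleen and small intestine have 1 such pair each and the liver has 2, labelled group 1 and group 2. How the rats of the 2 liver groups differ is not given in the sources used here. The 2 arrays of a pair hold the same RNA, so their spread is technical, and no value below measures the variation between rats. By the file headers each tissue was on its own slide, and tissue and slide cannot be told apart. Lymphocyte markers were highest in spleen for 6 of 6 genes, enterocyte markers were highest in small intestine for 7 of 7, and intracellular hepatocyte markers were highest in liver for 27 of 28. The small intestine also carried exocrine pancreas transcripts, 17 of 17 of which were well above background there. Depending on the array, 44.3% to 64.7% of features had both channels clearly above background.

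Hepatocytes secrete most of the proteins of plasma, and the genes for them are kept active by liver-enriched transcription factors such as HNF1, HNF4, C/EBP and FOXA. The apolipoproteins *Apoa1* and *Apoc3* are also made by enterocytes, which pack dietary fat into chylomicrons. The spleen filters blood, removes old red cells and stores platelets. In pooled whole tissue, fewer cells of a type and less RNA per cell cannot be told apart.

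Promoter sequence was at hand for 6 of the 9 genes, *Alb*, *Ahsg*, *Fga*, *Ttr*, *Tf* and *Serpina1*, from RefSeq (build GRCr8), as the 250 bases before and 50 after the start site. The HNF1 half-site GTTAAT, searched on both strands (ATTAAC on the other), was found in *Alb* and *Fga*, that is in 2 of 6, against 7.45% of 33469 promoters. The 120 bases before the start site of these 2 genes are shown because the site is shared, with the half-site in capitals. For *Alb* the stretch is chr14:17906980-17907099 on the minus strand with the site starting at -82 from the start site, and for *Fga* it is chr2:170672049-170672168 on the plus strand with the site at -52.
Alb: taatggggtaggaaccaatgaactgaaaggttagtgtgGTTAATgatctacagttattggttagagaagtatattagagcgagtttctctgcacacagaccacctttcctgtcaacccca
Fga: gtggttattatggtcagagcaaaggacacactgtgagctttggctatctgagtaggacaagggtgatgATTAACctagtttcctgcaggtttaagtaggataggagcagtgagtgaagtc
The C/EBP palindrome TTGCGCAA was in 0 of 6 and in 0.17% of all promoters, and the FOXA sequence TGTTTAC (or GTAAACA) was in 0 of 6 and in 3.78% of all. The sequence TATAAA (or TTTATA) was in *Tf* and in 14.2% of all promoters. A match of letters is not a measured site.

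In the spleen, the LO signal was higher than control on both arrays for 7 of the 9 genes, and over all genes tested this share was 14.9%. Since the genes were chosen for these values, nothing is read from that difference. The median log2 LO/control of the 9 genes was 0.52, beside -0.0057 over all 27247 genes. On array 1 (LO in Cy5) all 9 genes were above 0, with a mean of 0.65, and on array 2 (LO in Cy3) 7 of 9 were, with a mean of 0.34. The other 2 were *Ttr*, with equal signals on array 2, and *Tf*, with LO below control there.

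*Alb* was well above background in all 12 of its spleen readings. The dye-normalized signal of its probe A_44_P1017367 was 548.6 in control and 1026.7 in LO on array 1, and 445.5 and 512.4 on array 2. Probe A_44_P468103 gave 69.6 and 110.1 on array 1 and 54.4 and 73.8 on array 2, and probe A_44_P468107 gave 45.7 and 86.6, then 42.1 and 54.6. LO was above control in all 6 pairs of readings, and the gap was wider on array 1 for each probe. Averaged over probes and dyes, log2 LO/control of *Alb* was 0.58 ± 0.35 (SD of 2 arrays), or 1.5-fold.

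Several of the other genes were read near background. *Fga* had the highest mean log2 LO/control of the 9 genes, 0.70 ± 0.092 (SD of 2 arrays), with signals of 22.1 in control and 37.6 in LO on array 1 and of 16.4 and 25.6 on array 2. However, only 1 of its 4 spleen readings was well above background, an LO reading. *Ahsg* gave 21.6 and 43.2 on array 1 and 23.6 and 32.0 on array 2 with probe A_44_P390362. Its probe A_44_P390367 gave 26.7 and 54.8 on array 1 but 28.1 and 28.9 on array 2, where the samples nearly coincided, and 5 of the 8 *Ahsg* readings were well above background. *Ttr* was the gene on which the arrays differed most, with 31.1 in control and 72.8 in LO on array 1 and 33.9 in both on array 2, so that its mean of 0.61 came from array 1 alone.

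The apolipoproteins and *Serpina1* filled the range below. *Apoc3*, well above background in 8 of 8 readings, gave 60.3 in control and 83.2 in LO on array 1 and 47.0 and 66.4 on array 2 with probe A_43_P11435. Probe A_44_P327799 gave 79.3 and 138.2, then 78.0 and 96.8, and the mean log2 LO/control of *Apoc3* was 0.52 ± 0.16 (SD of 2 arrays). Each *Apoc3* probe was thus higher in LO on both arrays. *Apoa1* gave 30.1 and 40.6 on array 1 and 13.7 and 20.0 on array 2, with 2 of 4 readings well above background and a mean of 0.49. *Apoa2* gave 26.4 and 39.9 on array 1 and 22.7 and 25.3 on array 2, also with 2 of 4 readings well above background, and a mean of 0.38. *Serpina1* gave 55.3 and 64.7 on array 1 and 49.2 and 83.0 on array 2, with a mean of 0.49. For *Serpina1* and *Apoa1* the ratio was larger on array 2, and for the other genes it was larger on array 1.

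*Tf* did not share the pattern. Its spleen signal was 7245.5 in control and 7859.5 in LO on array 1 and 6070.9 and 5803.3 on array 2, so that LO was above control on array 1 and below it on array 2. Its mean log2 LO/control was 0.026 ± 0.13 (SD of 2 arrays), higher than 64.26% of genes, whereas the values of the other 8 genes were higher than 95.94% to 99.15% of genes.

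**Figure D1:**
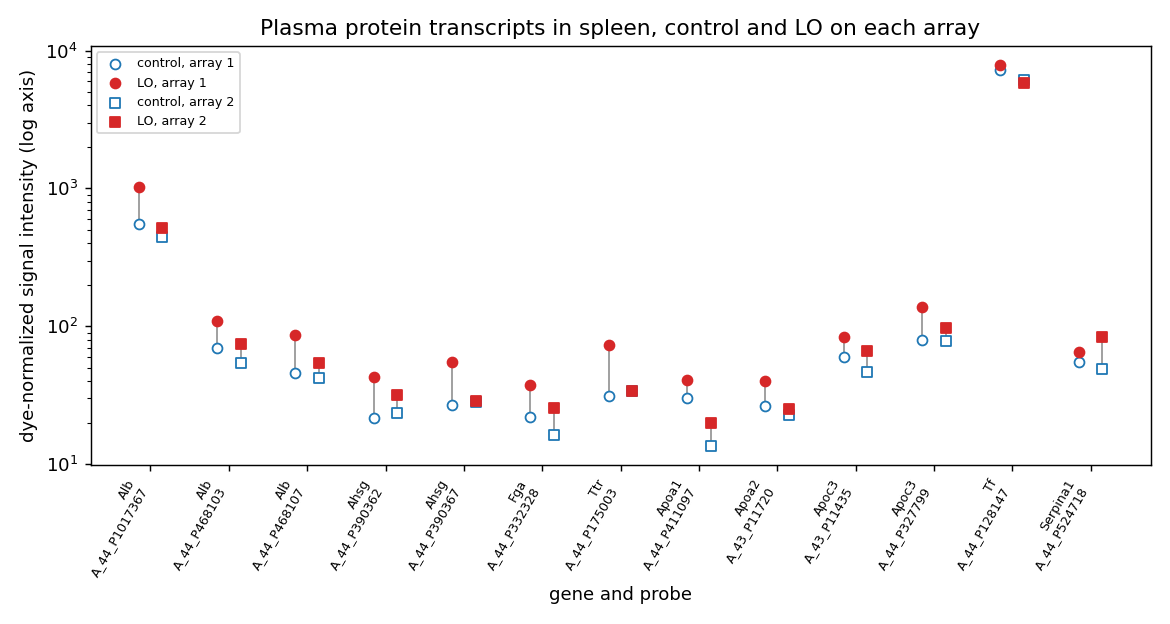
Dye-normalized signal intensity (log axis) of the 13 probes of the 9 genes in spleen, with open blue symbols for control and filled red symbols for LO, circles for array 1 (LO in Cy5) and squares for array 2 (LO in Cy3). Red lies above blue on both arrays for 11 of 13 probes, while *Tf* has no common direction.

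By the fold cut-offs of the study, at least 1.5-fold where LO was in Cy5 and Cy5/Cy3 of at most 0.75 where it was in Cy3, *Fga* was up-regulated in spleen and no other of the 9 genes was, beside 0.294% of all genes, and 0 of 9 were down-regulated, beside 0.0771%. The study also set a threshold of 0.01 on the P of the error model, without saying whether both arrays had to pass it. With a P below 0.01 required on both arrays, 0 of 9 genes passed. No share of all genes is at hand for that rule, so nothing is read from the count. On array 1 alone, the P was below 0.01 for every probe of *Alb* and *Ahsg*, for *Ttr* and for *Apoc3* probe A_44_P327799. On array 2 it was below 0.01 for none of the probes. The study itself lists *Alb* as induced in spleen and reports the same direction by RT-PCR. Counted by probe, 3 of 13 passed the fold cut-offs, which were that of *Fga*, A_44_P390362 of *Ahsg* and A_44_P468103 of *Alb*, beside 0.284% of all probes. LO was above control on both arrays for 11 of 13 probes, beside 15% of all probes. Of the 5 genes well above background in every spleen reading (*Alb*, *Ttr*, *Apoc3*, *Tf* and *Serpina1*), 0 passed the cut-offs and 3 were above control on both arrays, where 0.0397% and 15.7% of all such genes did. The values depended on the background correction. With normexp correction in place of the deposited values, the mean log2 LO/control over the 9 genes was 0.20 in place of 0.49, *Fga* stood at 0.092, *Apoa1* at 0.15 and *Alb* at 0.37, and 8 of 9 genes were above control on both arrays.

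In liver and small intestine none of the 9 transcripts was called. Averaged over both liver groups, log2 LO/control lay between -0.062 (*Apoa2*) and 0.057 (*Tf*), and the adjusted p of limma lay between 0.8512 and 0.9779. *Alb* stood at -0.13 in liver group 1 and 0.036 in group 2, and *Apoc3* at -0.062 and 0.15, so that the groups differed in sign. None of the 9 genes passed in liver even at an unadjusted p below 0.05, as 5.78% of all genes did, and 0 of all genes passed at an adjusted p below 0.05. In small intestine the values lay between -0.27 (*Ttr*) and 0.18 (*Apoa2*), each with an adjusted p of 1 by limma, and 0 of 9 had an unadjusted p below 0.05, as did 4.03% of all genes. The small intestine has a single pool pair whose spread was taken from the liver groups, and 0 of 27247 genes passed after adjustment there, so the missing calls do not show that these genes were unchanged. The difference between small intestine and liver did not pass for any of the 9 genes, and the closest were *Ttr* at -0.31 ± 0.09 (SE, adjusted p = 0.9957, limma) and *Apoa2* at 0.24 ± 0.088 (SE, adjusted p = 0.9957, limma). Over all genes 4.51% had an unadjusted p below 0.05 for that difference and 0 passed after adjustment. By the fold cut-offs 0 of 9 genes were called in either direction in these tissues, where the share of all genes called up and down was 0.217% and 0.187% in small intestine, 0.385% and 0.422% in liver group 1 and 0.404% and 0.613% in liver group 2. LO was above control on both arrays for 0 of 9 genes in small intestine, liver group 1 and liver group 2 (14.2%, 11.6% and 12.7% of all genes), and below it for 0, 1 (*Fga*) and 0 (12.5%, 11.6% and 14% of all genes). No test was made of spleen against the other tissues, because the spleen values chose the genes.

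The arrays of a pair often pointed in opposite directions in liver. On the arrays with LO in Cy5, 7 and 8 of the 9 genes were above 0 in groups 1 and 2, and on those with LO in Cy3 just 1 was in each group. The part of the ratio that followed the dye had a median over the 9 genes of 0.31 and 0.38 on the log2 scale in the 2 liver groups, toward Cy5, beside 0.018 and 0.016 over all genes. In spleen its median was 0.11, from -0.26 to 0.61, and for *Ttr* it was as large as the LO/control value. The part of the dye in the spleen values was not tested.

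**Figure D2:**
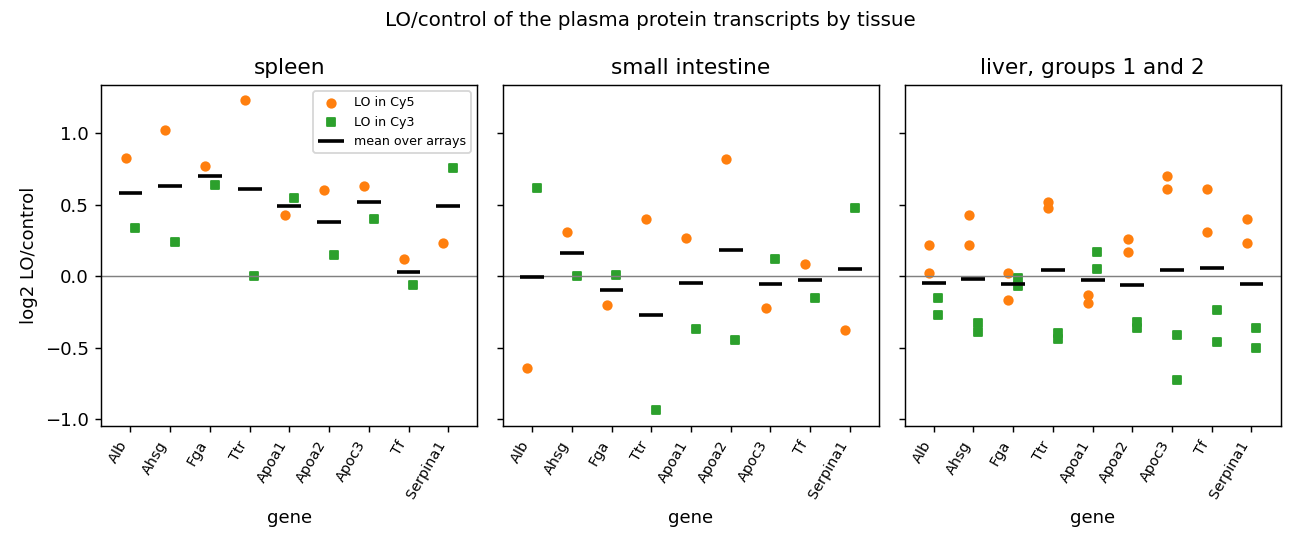
Log2 LO/control of each gene in spleen, small intestine and liver, with a point per array (orange circles, LO in Cy5, and green squares, LO in Cy3; the liver has 2 of each) and a black bar for the mean. The bars lie between 0.38 and 0.70 in spleen for 8 of 9 genes and between -0.27 and 0.18 in the other tissues.

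Liver and spleen differed in the level of these transcripts by far more than LO and control did. In liver the signal of the 13 probes in control samples averaged from 98760.0 to 267984.7. The control signal in spleen was 0.01094% to 0.2313% of that in liver for the 12 probes other than that of *Tf*, with a median of 0.02299%. *Tf* reached 2.485% of its liver signal. Averaged over the 2 spleen arrays, LO minus control ranged from 0.003987% of the liver signal, for *Apoa2*, to 0.1268%, for *Alb* probe A_44_P1017367. On array 2 by itself LO was below control for *Tf* and equal to it for *Ttr*.

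On normalized log2 levels, liver exceeded spleen for 9 of 9 genes by limma, as 31.9% of all genes did at an adjusted p below 0.05, while 38% were lower in liver. Their median was 12.04, or 9.72 with normexp correction. The difference was 4.91 ± 0.10 (SE, adjusted p = 5.262e-07, limma) for *Tf* and lay between 10.57 for *Alb* and 12.65 for *Apoa2* for the others. The values for *Fga*, *Ahsg*, *Apoa1* and *Apoa2* rest on spleen readings of which only some were well above background. These tests set RNA pools of a tissue against each other, and control and LO of a tissue serve as its samples. In control samples by themselves the median difference between liver and spleen was 12.34. The genes were chosen as transcripts of hepatocytes. A higher level in liver than in the other tissues goes with that choice and is not read as a result.

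Liver also exceeded small intestine for 8 of 9 genes, as 31.2% of all genes did, and was below it for *Apoa1*, as for 33.2% of all genes, a call that other scalings did not keep. The genes differed in their level in the small intestine. *Apoa1* and *Apoc3*, which enterocytes also make, were well above background in every reading there. *Apoa1* stood at 17.07 in control and 17.02 in LO, on the log2 scale, and in liver between 16.32 and 16.53. The difference between liver and small intestine was -0.61 ± 0.16 (SE, adjusted p = 0.0158, limma), but it turned to 0.60 (adjusted p = 0.0132, limma) when each channel was scaled to its 75th percentile, and it did not pass without replicate 1 (-0.60, adjusted p = 0.05413, limma), so that no order is given for these 2 tissues. *Apoc3* was 3.99-fold higher in liver than in small intestine (adjusted p = 9.392e-05, limma) and higher in small intestine than in spleen by 9.37 ± 0.17 (SE, adjusted p = 1.105e-06, limma), or by 7.72 with normexp correction. *Fga* likewise lay between the other tissues, at 10.10 in control and 10.00 in LO small intestine, 6.33 below liver (adjusted p = 2.762e-06, limma) and above spleen, where 1 of 4 readings was well above background. The difference from spleen was 5.71 on the deposited values and 3.20 with normexp correction, and its size is not firm.

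*Alb*, *Ahsg* and *Apoa2* were well above background in 0 of 12, 0 of 8 and 0 of 4 readings of the small intestine, so at best bounds can be given. For these bounds the intestine was set to the dimmest signal well above background on each array. On the deposited values, liver was then at least 8920.5-fold higher than small intestine for *Alb*, at least 8920.8-fold for *Ahsg* and at least 8575.5-fold for *Apoa2*. They are not bounds under other background corrections. With normexp correction the fitted log2 difference was 10.39 for *Alb*, 10.63 for *Ahsg* and 10.28 for *Apoa2*, each smaller than the bound on the deposited values. On the deposited values, spleen, as the mean of control and LO, was by the same bound at least 5.88-fold higher than small intestine for *Alb*. With normexp correction the fitted difference of small intestine from spleen, -1.12 on the log2 scale, was smaller than that bound. For *Ahsg* and *Apoa2* the same ratios were 1.469 and 1.338. They are not bounds, since only 5 of 8 and 2 of 4 spleen readings were well above background. The spleen means include the LO readings that chose the genes. The bounds themselves were not tested. The fitted differences of small intestine from spleen, which use the dim readings as they are, were -3.40, -2.18 and -1.31 on the log2 scale (adjusted p = 4.068e-05, 0.0002414 and 0.0007543, limma), and -1.12, -0.43 and -0.24 with normexp correction. For *Ahsg* and *Apoa2* the control samples by themselves did not pass (adjusted p = 0.06241 and 0.1801, limma), nor did *Apoa2* with normexp correction (adjusted p = 0.06564, limma). For *Tf* the difference of small intestine from spleen was -4.40 on the log2 scale (adjusted p = 3.246e-06, limma), with spleen the higher. *Ttr* differed by 0.30 ± 0.21 (SE, adjusted p = 0.2975, limma) between small intestine and spleen, and these neighbours are not ordered. *Serpina1* was 0.64 ± 0.17 higher in small intestine than in spleen (SE, adjusted p = 0.0247, limma), but not in control samples by themselves (adjusted p = 0.3173, limma), without replicate 1 (0.54, adjusted p = 0.2633) or with normexp correction (0.23, adjusted p = 0.1255). In all, 4 of 9 genes were higher and 4 were lower in small intestine than in spleen, beside 22.3% and 29.7% of all genes, where the counts include the fitted differences of dim readings.

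**Figure D3:**
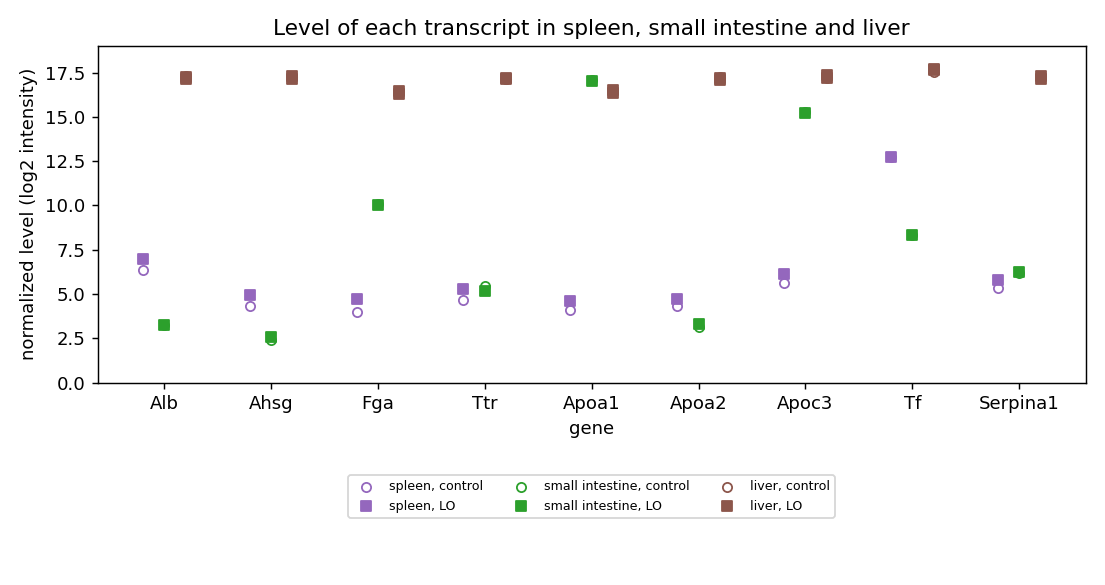
Normalized level (log2 intensity) of each gene in spleen (purple), small intestine (green) and liver (brown), with open circles for control and filled squares for LO. Liver lies near 16 to 18 for every gene, while spleen lies below 7 for all but *Tf*, and *Apoa1* and *Apoc3* reach 15 or more in small intestine. Levels of different probes are not comparable.

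Other plasma protein genes showed the spleen pattern in part. Of 38 further genes of this kind on the array, 18 were above control on both spleen arrays and 2 were below, beside 14.9% and 16.2% of all genes, and their median log2 LO/control was 0.071. Among the 22 that were well above background in every reading, 15 were above and 0 were below, beside 15.7% and 19.3% of all such genes. Of these 22, 0 passed the cut-offs, where 0.0397% of all such genes passed as up-regulated. *Ambp*, which encodes alpha-1-microglobulin and bikunin, stood at 0.76, with 1.36 on array 1 and 0.16 on array 2. *Apoa4*, a further apolipoprotein of chylomicrons, stood at 0.60 (0.93 and 0.26), and *Fgb*, the beta chain of fibrinogen, at 0.50 (0.67 and 0.33). At the other end *Cp* (ceruloplasmin) stood at 0.01, *Apom* at 0.025 and *Fgg*, the gamma chain of fibrinogen, at 0.036 with opposite signs on the arrays. With normexp correction *Fga*, *Fgb* and *Fgg* of fibrinogen stood at 0.092, 0.24 and 0.024.

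Genes of hepatocytes that encode enzymes and transporters, which stay inside the cell, were mostly too dim in spleen to be read. Of 28, 16 were well above background in none of 4 spleen readings and 9 in all of them. Those in none included *Cps1* and *Otc* of the urea cycle, *Tat*, *Cyp2e1*, *Cyp7a1* and the asialoglycoprotein receptor genes *Asgr1* and *Asgr2*. Among the 28, 10 were above control on both arrays and 3 were below, beside 14.9% and 16.2% of all genes, with a median of 0.036. Among the 9 bright genes the counts were 3 and 3, beside 15.7% and 19.3% of all bright genes. With normexp correction 4 of 28 were above control on both arrays. *Tdo2*, an enzyme of tryptophan breakdown, stood at 0.36 and *Cyp2c11*, a male-specific P450, at 0.30, with LO above control on both arrays for each. *Slco1b2* had a mean of 0.13 with opposite signs. *Ass1* (-0.068) and *Slc10a1* (-0.063) were below control on both arrays, and *Arg1* (-0.063) was not. The summed signal of these genes was 2370.4 in control and 2516.0 in LO on array 1, and 1994.5 and 2015.8 on array 2. The part of liver RNA in the values of the 9 genes was not tested.

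Liver transcription factors and receptors of the plasma proteins had means close to 0 where they could be read. *Hnf4a* stood at 0.034 and *Cebpb* at -0.018 in spleen, the factors that were well above background in every reading, and 6 of 11 factors were well above background in no spleen reading. Of 9 genes for receptors and partners, 1 was above control on both arrays and 0 were below, beside 14.9% and 16.2% of all genes. It was *Scarb1*, the receptor for high-density lipoprotein, at 0.036, while *Abca1*, which loads lipid onto *Apoa1* protein, stood at 0.038 with opposite signs and *Fcgrt*, which recycles albumin, at -0.047. *Lipc* also had a mean of 0.038, from -0.65 on array 1 and 0.73 on array 2.

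Markers of red cell precursors also had higher LO signals in spleen. All 4 on the array were above control on both spleen arrays, beside 14.9% of all genes and 15.7% of those well above background in every spleen reading. *Rhag*, a membrane glycoprotein of red cells, stood at 0.61 (0.74 and 0.47), *Slc4a1* (band 3) at 0.30, *Hbb* (beta globin) at 0.29 and *Alas2*, which starts haem synthesis in red cells, at 0.23. Their summed signal was 128613.6 in control and 159571.9 in LO on array 1 and 109767.9 and 132610.6 on array 2. *Rhag* passed the fold cut-offs, beside 0.294% of all genes and 0.0397% of those well above background in every spleen reading. All 4 were well above background in every spleen reading, and with normexp correction their median was 0.26 against 0.30. In small intestine 2 of 4 were above control on both arrays, beside 14.2% of all genes, with a median of 0.22. In liver groups 1 and 2, 0 of 4 were above control on both arrays, beside 11.6% and 12.7% of all genes. Below control on both arrays were 2 and 1 of 4 there, beside 11.6% and 14% of all genes. Of 5 platelet markers 3 were above control on both spleen arrays, beside 14.9% of all genes, with a median of 0.064. The part of red cell precursors in the values of the 9 genes was not tested.

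Lymphocyte markers lay near 0, with 0 of 6 above and 0 of 6 below control on both arrays, from -0.045 for *Cd2* to 0.02 for *Cd74*, and a median of -0.017. Markers of red pulp macrophages had a median of 0.039, with 1 of 8 above control on both arrays. Beside every list of this paragraph, 14.9% of all genes were above and 16.2% below control on both spleen arrays. Of the tissues that could adhere to a dissected spleen, exocrine pancreas gave 2 of 17 genes above and 3 below (summed signal 2769.4 in control and 2456.3 in LO on array 1, 2308.1 and 2121.1 on array 2), fat gave 1 of 6 above and 1 below (50274.3 and 49924.6, then 39697.6 and 39333.6), and mesothelium gave 1 of 4 above and 2 below (6594.4 and 5840.8, then 4797.7 and 5374.3). The fat gene above control was *Adipoq* (adiponectin), named after its value was seen, at 1.31 (0.90 and 1.73), which passed the fold cut-offs but was not well above background in every spleen reading. Enterocyte markers gave 0 of 7 above and 1 below (658.6 and 677.1, then 630.4 and 584.8), and islet markers gave 1 of 7 above and 0 below (169.1 and 178.1, then 149.4 and 163.9).

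**Figure D4:**
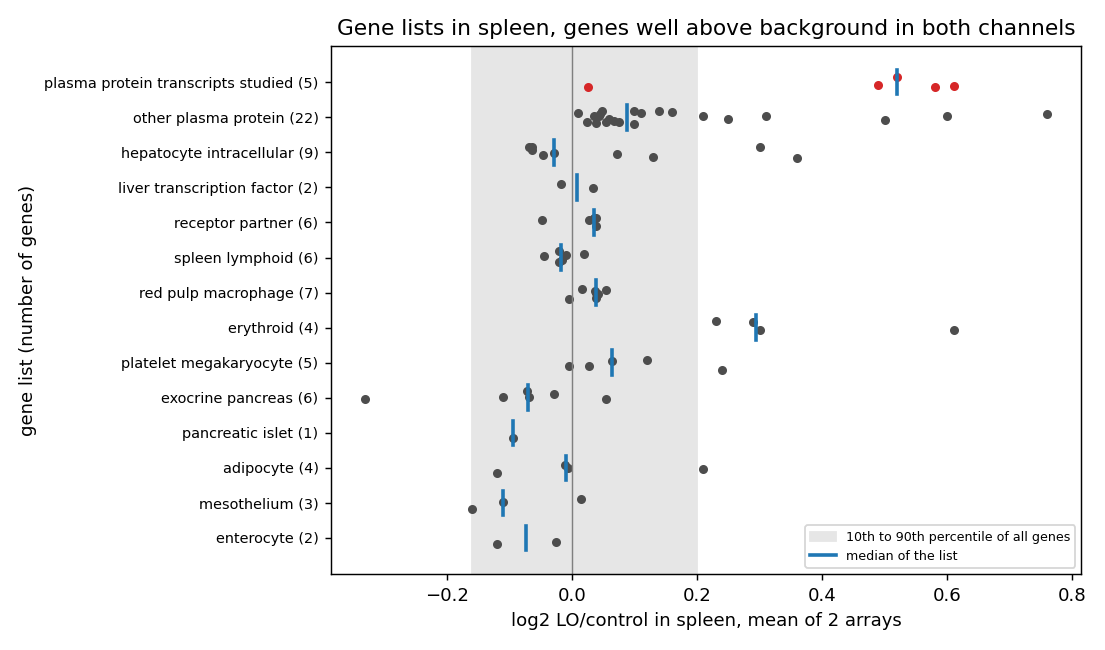
Log2 LO/control in spleen, as the mean of 2 arrays, for the genes of each list that were well above background in every spleen reading, with a point per gene and a blue line at the median of the list. The grey band runs from the 10th to the 90th percentile of all genes past the filter (-0.16 to 0.20), and the 5 plasma protein genes studied (red, median 0.52) and the 4 erythroid genes (median 0.30) lie to its right but for *Tf*.

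Across the 8 arrays, the genes whose log2 LO/control most resembled the mean of the 9 genes were *Fgb* (Pearson r = 0.96), *Mup5*, a major urinary protein (0.94), *Abcb6*, a porphyrin transporter (0.92), *Aqp1*, a water channel of red cells and vessels (0.92), and *Amh*, a hormone of the gonads (0.92). These were taken from 5807 named genes well above background in every spleen reading, and each r is a description over 8 arrays that share RNA within a pair and dye orientation between pairs. *Fgb*, *Mup5*, *Abcb6* and *Aqp1* had LO above control on both spleen arrays, with means of 0.50, 0.49, 0.21 and 0.37, whereas *Amh* had 0.28 on array 1 and -0.084 on array 2.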

How the data were processed

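Pooled control and LO RNA of rat spleen, small intestine and liver was hybridized on Agilent 2-colour arrays as dye swaps. The authors processed the images with Agilent Feature Extraction (version 11.0.1.1) and deposited, per feature, the log10 ratio of Cy5 over Cy3 after background subtraction and LOWESS, with a p-value that the software's error model gives each array by itself. The deposited signal intensity values are dye-normalized intensities of each channel, and the deposited flags mark features well above background, saturated (0 features here) or non-uniform. The authors also deposited median pixel intensity values, which were used with normexp. The value table of the whole series was not used here.

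Deposited log10 ratios became log2 LO/control by the dyes in the labels. The 34 features flagged non-uniform were left out, copies of a probe and probes of 1 identifier were averaged, and a gene was kept if 2 or more arrays had 1 or more channels well above background. Symbols came from RefSeq by accession, and 8919 of 36930 identifiers had one. The 2 arrays of a pair were averaged, and limma (version 3.58.1, R 4.3.3) fitted 1 coefficient per tissue over 4 pool pairs, with Benjamini-Hochberg adjustment over 27247 genes and a threshold of 0.05. The spread came from the 2 liver groups, and the single pairs of the other tissues were assumed to vary likewise. Levels were log2 channel signals after Aquantile normalization, averaged over dyes, with tissue and treatment in limma. The scripts were tested on simulated data. Figures used Python 3.11.15 and matplotlib 3.10.9.

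Replicate numbers in the labels mark the dye orientation, and the part of the ratios that follows it was correlated between pairs (mean r = 0.634, lowest 0.561), so same-numbered arrays are paired by dye. The 9 genes and all gene lists were chosen with earlier results of these data known. Genes named from each list were up to 3 with the highest and 3 with the lowest spleen LO/control among those well above background in every spleen reading, beside all 9 genes studied and the 5 most alike by correlation. The hepatocyte genes named as undetected in spleen were chosen after their values were seen. Some genes of the lists are not reported here by name. The alternatives tried were normexp correction (offset of 50) with loess, no filter, bright genes only, single probes, centring, either replicate or liver group left out, all 8 arrays with and without a replicate block, other cut-offs and other scalings of the levels. The number of arrays limits the precision.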

Additional observations from a re-analysis of the deposited data

How the results depend on the processing

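Leaving out either array of each pair moved the mean log2 LO/control of the 9 genes in liver between -0.29 and 0.26, from -0.014. Values without replicate 1 and without replicate 2 lay on opposite sides of 0 in liver for *Alb* (-0.21 and 0.12), *Ahsg* (-0.36 and 0.32), *Ttr* (-0.42 and 0.50), *Apoa1* (0.11 and -0.16), *Apoa2* (-0.34 and 0.22), *Apoc3* (-0.57 and 0.66), *Tf* (-0.35 and 0.46) and *Serpina1* (-0.43 and 0.32). They did so in small intestine for *Alb* (0.62 and -0.64), *Fga* (0.0048 and -0.20), *Ttr* (-0.94 and 0.40), *Apoa1* (-0.37 and 0.27), *Apoa2* (-0.45 and 0.82), *Apoc3* (0.12 and -0.22), *Tf* (-0.15 and 0.088) and *Serpina1* (0.48 and -0.38). With normexp correction *Tf* (0.014) and *Serpina1* (-0.05) reversed in small intestine, as did *Alb* by probes A_44_P1017367 (0.32) and A_44_P468107 (0.06). *Ahsg* there was 0.00, with no direction, without replicate 1 and by probe A_44_P390367. None of these values was past the threshold in any setting run.

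In spleen the mean of the 9 genes was 0.49, 0.20 with normexp correction, and 0.65 or 0.34 on single arrays. The count past the cut-offs was 1, beside 0.294% of all genes called up. With bright probes only it was 0, beside 0.0397% of genes well above background in every spleen reading. Counting each probe it was 3, beside 0.284% of all probes. It was 0 with an error-model P below 0.01 on both arrays and 3 counting genes with any probe past the cut-offs. No share of all genes is at hand for these last rules, and nothing is read from the changes in count. Hepatocyte intracellular genes above control on both spleen arrays numbered 10 of 28, beside 14.9% of all genes, and 4 of 28 with normexp correction. Among bright genes only they numbered 3 of 9, beside 15.7% of all bright genes. With the replicate block the means were unchanged at -0.014 in liver and -0.013 in small intestine, and the block changed no call of the 9 genes.

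The median level difference between liver and spleen was 12.04, 12.83 with 75th percentile scaling and 9.72 with normexp correction, and between liver and small intestine 11.04, against 11.25 without normalization, 11.91 with 75th percentile scaling and 9.66 with normexp. *Apoa1* between liver and small intestine reversed to 0.60 with 75th percentile scaling. Causes were not tested. Dim spleen signals limit the ratios of *Fga*, *Ahsg*, *Apoa1* and *Apoa2*.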
